A study of Mus musculus with 13 samples.

Results

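Chemokines, interleukins and their receptors were followed across 2 kinds of mouse glioblastoma and normal brain. The members were the protein-coding genes whose symbols begin with Ccl, Ccr, Cxcl, Cxcr or Il and a digit in the GENCODE M21 annotation, 134 of the 55416 genes counted. Another 9 annotated copies of such genes, all of near-identical multicopy families (Ccl19, Ccl21, Ccl27 and Il11ra2), were not analysed here. The tumors had been induced by injecting a lentivirus into motor cortex, in a CNP-Cre strain of mice where the promoter of Cnp, a gene of oligodendrocytes, drives Cre recombinase. The PDGFB tumors (genotype label PDGFB-shP53, n = 5 mice) received a virus with the growth factor PDGFB, and the RAS tumors (label HrasV12-shp53, n = 5 mice) one with the oncogene HRasV12. Both viruses also carried an shRNA against p53, which the normal samples lacked. GFP+ tumor tissue was collected once the mice had come to a clinical endpoint. Normal brain tissue (label WT, n = 3) has no region in its labels, and its titles mark both sexes. The protocol speaks of normal tissue cut from beside GFP+ tumor, so the normal samples may hold tissue of tumor-bearing mice, and they may share animals. No age is given. Polyadenylated RNA of each piece was sequenced, and the deposited values were raw read counts per gene.

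Chemokines are small secreted proteins that bind G protein-coupled receptors on leukocytes and set where those cells go. Interleukins are secreted signals that bind receptors of several chains, most of which pass the signal on through JAK kinases and STAT factors, or, for the interleukin 1 family, through Myd88 and NF-kB. In brain tumors the known sources of these molecules include microglia, infiltrating macrophages, astrocytes and the tumor cells, and in many glioblastomas the ligands of Ccr2 and Csf1r draw or keep myeloid cells.

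These genes were sparsely read. The 13 libraries held 13952738 to 15607754 reads, of which 84.5% to 87.3% fell in no gene and 529162 to 643055 were counted for one. The members took 374 to 714 reads per library, or 5900 in all. At least 1 read was counted for 92 members and none for 42, among them Il6, Il10, Il13, Il17a, Il2, Cxcr2 and Cxcr3. A low-count filter left 15 members to test, which held 78.1% of the members' reads, and 119 below it, 77 of them with a read. As CPM, a gene's reads per 1000000 reads counted for genes, the members summed to 618 to 703 in PDGFB tumors, 690 to 1110 in RAS tumors and 770 to 830 in normal brain. Of the families, interleukins took 2627 reads over 38 genes, interleukin receptor chains 1579 reads over 41 genes, and CC chemokines 366 reads over 23 genes.

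The sources used here do not say whether strand was used in counting, or which strand was counted. The reads under a gene's name may therefore be reads of the strand across from it. This holds for every member, also one with no annotated gene across from it, and was not tested. Exons of 26 members overlapped an exon of a gene on the other strand, and 9 of these (34.6%) passed the filter. Another 15 members lay across from an intron only, of which 1 (6.67%) passed, and 93 had no gene across from them, of which 5 (5.38%) passed. The members across from an exon had 24.6 reads per kilobase of their exons, against 10.9 for those with no gene across from them. The same values over all genes are not given here, so these do not set the members apart from other genes. Il1rap, the accessory chain that the receptors for interleukin 1 and Il33 share, is shown as an example, since 353 of its 552 overlapping bases are coding sequence of its own. The stretch below shows 300 of them, at chr16:26714701-26715000 on the plus strand of GRCm38, in exon 11 of 11 of Il1rap. Capitals mark the 257 bases that lie across from an exon in both of the 2 Gm20319 transcripts (of 3) that reach this stretch.
Il1rap exon 11: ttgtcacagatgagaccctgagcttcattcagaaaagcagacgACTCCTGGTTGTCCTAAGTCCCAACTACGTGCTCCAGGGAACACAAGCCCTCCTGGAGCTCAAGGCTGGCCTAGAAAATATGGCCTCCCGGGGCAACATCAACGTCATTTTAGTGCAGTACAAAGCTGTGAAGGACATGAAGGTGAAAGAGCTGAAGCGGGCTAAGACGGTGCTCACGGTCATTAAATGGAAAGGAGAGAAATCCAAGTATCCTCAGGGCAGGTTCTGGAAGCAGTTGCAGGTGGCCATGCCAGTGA

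Between each pair of groups the tested members moved in both directions (edgeR quasi-likelihood test, Benjamini-Hochberg adjusted p under 0.05 over 7722 genes). In PDGFB tumors, 5 of the 15 were higher and 3 lower than in normal brain, which is 8 members, where 45.3% of all tested genes were called (20.2% higher and 25.1% lower). In RAS tumors, 6 were higher and 3 lower than in normal brain, where 56.2% of all genes were called (26.9% higher and 29.3% lower). Of PDGFB against RAS tumors, 3 were higher and 3 lower, where 32.1% of all genes were called (14.6% higher and 17.4% lower). The counts of called members therefore lie near those shares, and the results below are about single genes. The median log2 fold change of the 15 was 0.64 in PDGFB tumors against normal brain, 1.10 in RAS tumors against normal brain and -0.27 in PDGFB against RAS tumors, where all genes had 0.00, 0.02 and 0.03. Members such as Il27, Ccl6 and Il21 had no read in normal brain and passed the filter only through tumors. Their direction against normal brain was thus fixed by the filter, and they enter the counts and medians given here. Groups were fully apart in CPM for 8 members in PDGFB tumors against normal brain, 5 higher and 3 lower (51.4% of all genes, 28.2% higher and 23.3% lower). The same held for 10 members in RAS tumors against normal brain, 7 higher and 3 lower (52.1% of genes, 25.8% and 26.4%). In PDGFB against RAS tumors it held for 5 members, 3 higher and 2 lower (20.3% of genes, 11.4% and 8.88%). Both tumor groups were set against the same normal samples.

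**Figure D1:**
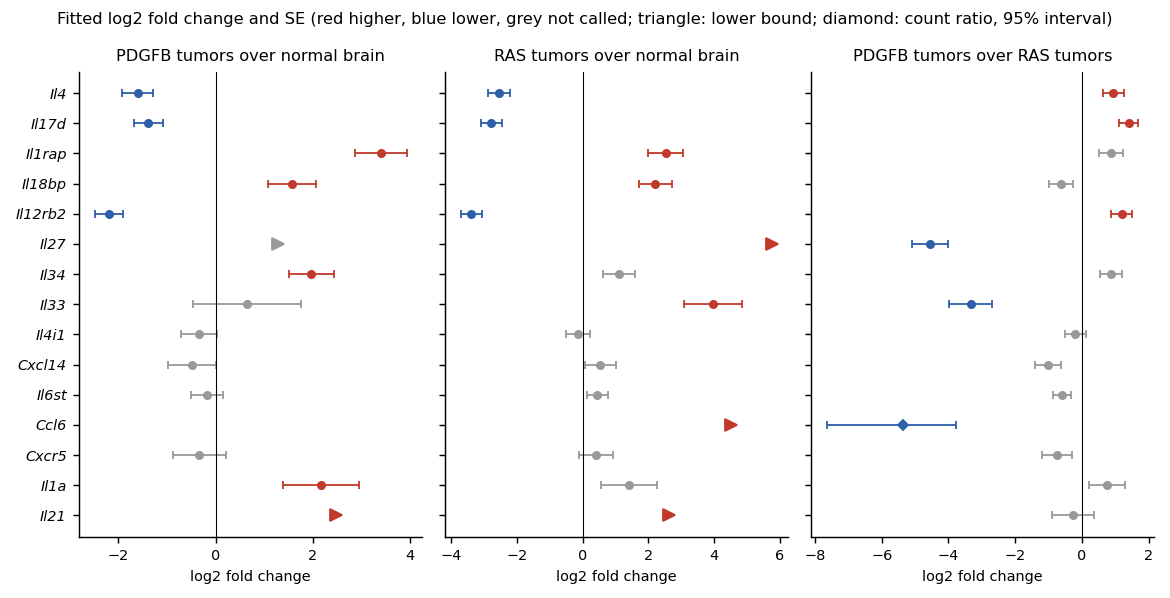
Log2 fold change of the 15 tested members in PDGFB tumors over normal brain, RAS tumors over normal brain and PDGFB tumors over RAS tumors. Circles with bars are fitted values and standard errors, triangles are lower bounds where normal brain had no read, the diamond is a ratio of counts with its 95% counting interval, and Ccl6 has no value in PDGFB tumors against normal brain, where both groups were at or under 3 reads. Il4, Il17d and Il12rb2 lie left of 0 in both tumor groups, and Il27, Ccl6 and Il33 lie far to the right in RAS tumors.

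Among the ligands, Il27 was read mostly in RAS tumors. It encodes the p28 chain of a cytokine made by macrophages and dendritic cells, which pairs with Ebi3 and signals through Il27ra and Il6st. In RAS tumors Il27 (ENSMUSG00000044701, chr7:126589010-126594941, minus strand) had 48, 36, 28, 42 and 138 reads, while normal brain had none in any of 3 libraries. PDGFB tumors had 5, 2, 3, 1 and 2 reads. No PDGFB tumor reached a RAS tumor, and RAS tumor 5 stood well above the other RAS tumors. Il27 averaged 4.20 ± 2.34 CPM in PDGFB tumors (SD, n = 5) and 93.3 ± 68.7 CPM in RAS tumors (n = 5), and 0 in normal brain (n = 3). Il27 rose at least 54.4-fold in RAS tumors against normal brain, taking 3 reads over the normal group as a floor (edgeR adjusted p = 1.11e-05). In PDGFB against RAS tumors it was 23.6-fold lower, a log2 fold change of -4.56 ± 0.54 (adjusted p = 1.77e-05), and without RAS tumor 5 the difference was -3.96 (adjusted p = 2.06e-06). PDGFB tumors against normal brain missed the threshold (adjusted p = 0.0655), and without RAS tumor 5, which shares in the estimate of the spread, they passed it (0.00725). The partner chain Ebi3 had 4 reads in all, 2 in PDGFB tumors and 2 in RAS tumors, and the receptor chain Il27ra had 18.

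The last 103 bases of Il27, at its 3′ end, are also exon of Apobr, a receptor for lipoproteins on macrophages, and no base of the overlap codes for either protein. Apobr had 0, 1, 0, 0 and 1 reads in PDGFB tumors, 16, 4, 5, 13 and 27 in RAS tumors, and 2, 0 and 1 in normal brain. It moved with Il27, up in RAS tumors against normal brain (ratio of counts 12.1, 95% counting interval 3.96 to 60.2, edgeR adjusted p = 0.00317) and down in PDGFB against RAS tumors (ratio 0.0309, interval 0.00366 to 0.116, adjusted p = 0.000281). Il27 had 305 reads to the 70 of Apobr. The part of each in the other's count was not tested.

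Il33, an alarm signal that sits in nuclei of brain glia and binds Il1rl1, was also high in RAS tumors. Its libraries had 2, 10, 0, 2 and 6 reads in PDGFB tumors, 59, 8, 29, 77 and 15 in RAS tumors, and 2, 1 and 3 in normal brain. RAS tumors spread widely, and RAS tumor 2 lay below PDGFB tumor 2. Il33 averaged 6.56 ± 6.59 CPM in PDGFB tumors, 60.9 ± 47.1 CPM in RAS tumors and 3.42 ± 1.53 CPM in normal brain. It rose 15.7-fold in RAS tumors against normal brain (log2 3.97 ± 0.88, edgeR adjusted p = 0.000988). The log2 fold change in PDGFB against RAS tumors was -3.33 ± 0.64 (adjusted p = 0.000767), or -3.97 without PDGFB tumor 2. PDGFB tumors against normal brain gave 0.64 (adjusted p = 0.665). Il33 has no gene across from it, and its receptor Il1rl1 had 5 reads in all.

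Il4 and Il17d fell in both tumor groups. Il4 is the cytokine by which T helper cells and mast cells start type 2 responses, and Il17d is a member of the Il17 family with transcripts known from nervous tissue. Il4 (chr11:53602982-53618669, minus strand) had 92.5, 75.5, 99.5, 84.3 and 114 CPM in PDGFB tumors, 31.1, 95.2, 35.7, 41.3 and 18.7 CPM in RAS tumors, and 226, 238 and 258 CPM in normal brain. Every tumor was below every normal sample, and RAS tumor 2 lay among the PDGFB tumors. Against normal brain the log2 fold change of Il4 was -1.60 ± 0.32 in PDGFB tumors (edgeR adjusted p = 0.000663) and -2.54 ± 0.33 in RAS tumors (adjusted p = 8.29e-06). It was higher in PDGFB than in RAS tumors by 0.94 ± 0.31 (adjusted p = 0.0254), a call that was lost without PDGFB tumor 3 (0.0518), PDGFB tumor 5 (0.0588) or RAS tumor 1 (0.0639). Il4 has no gene across from it. The 3′ end of Kif3a, a kinesin motor gene on the plus strand, lies 1015 bases from the 3′ end of Il4. Kif3a also fell, to 9.45 ± 2.12 CPM in PDGFB tumors and 7.81 ± 6.1 CPM in RAS tumors, against 21.7 ± 4.18 CPM in normal brain (log2 -1.41, adjusted p = 0.0238, and -1.55, adjusted p = 0.0125). Of 14 T and NK cell markers, 5 had no read in any library (Cd8a, Gzma, Ncr1, Nkg7 and Trac). Their summed level was 268 to 389 CPM in PDGFB tumors, 268 to 717 CPM in RAS tumors and 180 to 213 CPM in normal brain, so that each tumor lay above each normal sample, and most of it was Foxp3, which lies across from an exon. The part of these values in the Il4 result was not tested.

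Il17d (chr14:57524777-57543166, plus strand) had 94.1, 120, 104, 95.8 and 86 CPM in PDGFB tumors, 18, 68.9, 37.4, 30.2 and 18.7 CPM in RAS tumors, and 218, 253 and 190 CPM in normal brain. The groups did not overlap in any of the 3 comparisons. The log2 fold change was -1.38 ± 0.30 in PDGFB tumors against normal brain (edgeR adjusted p = 0.00133), -2.77 ± 0.32 in RAS tumors against normal brain (adjusted p = 2.42e-06) and 1.40 ± 0.29 in PDGFB against RAS tumors (adjusted p = 0.00158). No gene lies across from Il17d. Per kilobase of exon, which allows genes to be compared, Il4 and Il17d had the highest levels of the tested members in normal brain, 196 and 173 CPM per kilobase, and the next, Il12rb2, had 30.4. In PDGFB tumors Il17d and Il4 also led, at 78.5 and 76, with Il34 next at 23.5. In RAS tumors Il27 led, at 91.4 CPM per kilobase, before Il4 at 36.2 and Il17d at 27.2.

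In bulk tissue, fewer cells of a type and less RNA per cell cannot be told apart, and this holds for Il4, Il17d and every other member. Neuron markers fell along with Il4 and Il17d, 13 of 14 in PDGFB tumors and 11 of 14 in RAS tumors against normal brain, and none of the 14 was at 0. Their summed level was 372 to 826 CPM in PDGFB tumors, 4130 to 8560 CPM in RAS tumors and 6160 to 6490 CPM in normal brain. Nefm, which lies across from Nefl, alone averaged 276 CPM in PDGFB tumors, 5070 CPM in RAS tumors and 4160 CPM in normal brain. In PDGFB against RAS tumors, where Il4 and Il17d were higher, 1 neuron marker was higher, 3 were lower and 10 did not pass. Mature oligodendrocyte markers fell as well, 5 of the 6 tested in each tumor group against normal brain. They summed to 775 to 871 CPM in PDGFB tumors, 599 to 899 CPM in RAS tumors and 1650 to 2360 CPM in normal brain. Of 8 tested astrocyte markers 3 fell in each tumor group, and 1 rose in RAS tumors. The part of neurons and glia in these results was not tested.

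Il34, the ligand that shares the receptor Csf1r with Csf1 and is made by neurons in the healthy brain, was higher in PDGFB tumors. It had 21, 44, 24, 30 and 22 reads in PDGFB tumors, 18, 18, 19, 9 and 6 in RAS tumors, and 3, 5 and 9 in normal brain. PDGFB tumors lay above all RAS tumors and normal samples, and RAS tumors overlapped normal brain. The rise over normal brain was 1.97 ± 0.46 in PDGFB tumors (edgeR adjusted p = 0.00203). RAS tumors against normal brain gave 1.10 (adjusted p = 0.0579) and passed without RAS tumor 4 (0.0283), RAS tumor 5 (0.0124) or normal sample 3 (0.0323) and with library totals (0.0464). PDGFB against RAS tumors gave 0.87 (adjusted p = 0.0551) and passed without RAS tumor 2 (0.0424), RAS tumor 3 (0.0341) or normal sample 1 (0.0482), and with library totals (0.0341), limma-voom (0.0359), no filter (0.048) and median-of-ratios scaling (0.0497). Csf1r, the receptor, averaged 197 ± 18.2 CPM in PDGFB tumors, 281 ± 25.4 CPM in RAS tumors and 248 ± 11.4 CPM in normal brain, and was lower in PDGFB tumors than in either (log2 -0.57 against normal brain, adjusted p = 0.0153, and -0.66 against RAS tumors, adjusted p = 0.00392). Across from Il34 lie Gm15895 over 75 bases and Gm15894 over 22 bases. Gm15895 had 2, 14, 0, 1 and 0 reads in PDGFB tumors, 7, 4, 1, 7 and 7 in RAS tumors, and none in normal brain, and was highest in PDGFB tumor 2, as Il34 was. In a fit with no low-count filter Gm15895 was at least 3.18-fold higher in PDGFB tumors (adjusted p = 0.0123) and at least 4.84-fold higher in RAS tumors (adjusted p = 0.00109) than in normal brain. Gm15894 fell in PDGFB tumors against normal brain (log2 -2.24, adjusted p = 0.00397), with 0 to 7 reads in PDGFB tumors, 24 to 48 in RAS tumors and 8 to 27 in normal brain. The part of these genes in the Il34 count was not tested.

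The remaining tested interleukins were Il1a, an inflammatory ligand of the interleukin 1 receptor, and Il21, a T cell cytokine. Il1a had 5, 16, 6, 10 and 12 reads in PDGFB tumors, 4, 3, 6, 4 and 9 in RAS tumors, and 0, 0 and 5 in normal brain. It rose in PDGFB tumors against normal brain (log2 2.17 ± 0.78, edgeR adjusted p = 0.0316), a call that was lost without normal sample 1 (0.112) or normal sample 2 (0.105), and without normal sample 3 the normal group had no read. RAS tumors against normal brain gave an adjusted p of 0.162, which was 0.00672 without normal sample 3. Il21 had 4, 10, 12, 1 and 3 reads in PDGFB tumors, 4, 12, 9, 7 and 1 in RAS tumors, and none in normal brain. It was at least 5.61-fold higher in PDGFB tumors (adjusted p = 0.0124) and at least 6.15-fold higher in RAS tumors (adjusted p = 0.00617) than in normal brain, and PDGFB against RAS tumors missed the threshold (adjusted p = 0.776). Both genes lie across from a noncoding gene. For Il1a this is Gm14023, over 222 coding bases, and it rose too, by 3.02 in PDGFB tumors (adjusted p = 0.00213) and 3.05 in RAS tumors (adjusted p = 0.00137) against normal brain. For Il21 it is Gm12534, over 469 bases, which had 1 read in all.

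**Figure D2:**
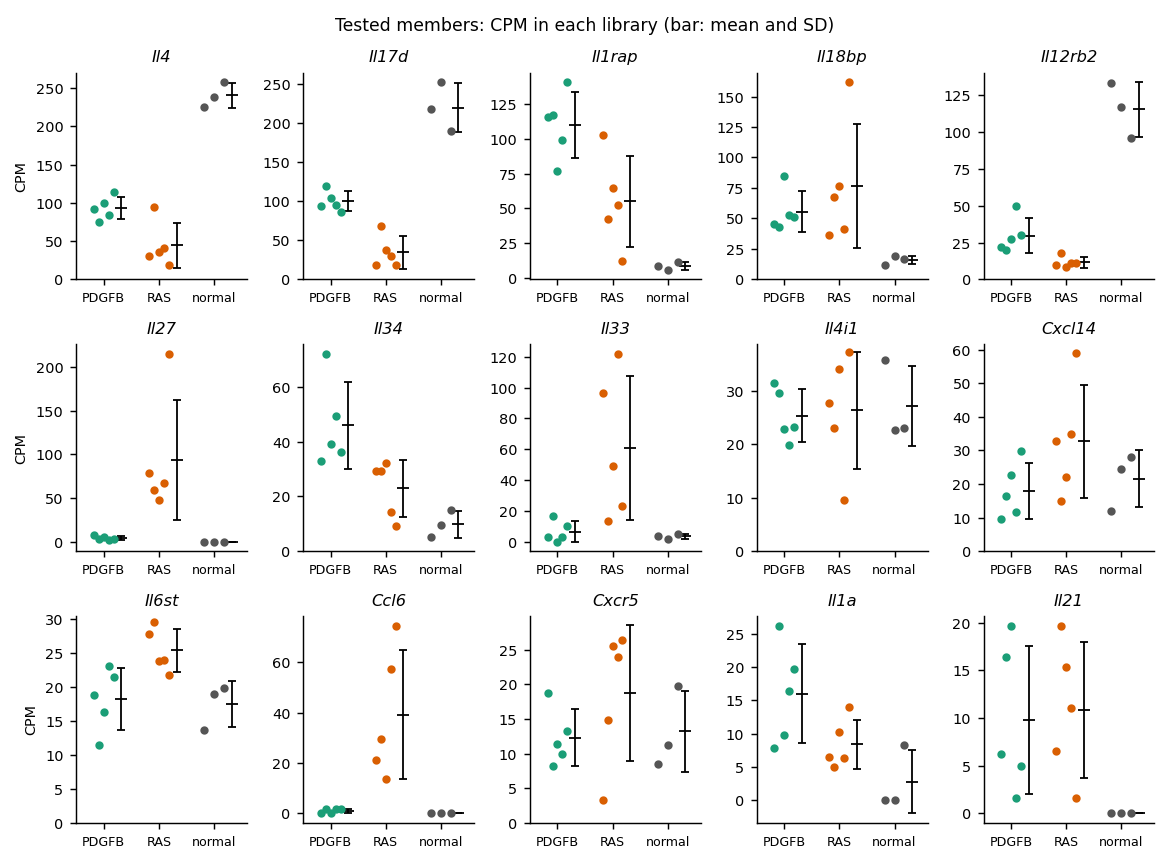
CPM of the 15 tested members in each library, with PDGFB tumors (n = 5) left of RAS tumors (n = 5) and normal brain (n = 3), points for libraries and a bar for the mean and SD. Il27 and Ccl6 sit near 0 in PDGFB tumors and normal brain and spread upward in RAS tumors, and Il4, Il17d and Il12rb2 are highest in normal brain.

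Of the receptor chains, Il1rap rose and Il12rb2 fell. Il1rap had 74, 71, 47, 60 and 85 reads in PDGFB tumors, 63, 26, 38, 33 and 8 in RAS tumors, and 5, 3 and 7 in normal brain. All tumors were above all normal samples, RAS tumor 5 only just. The rise was 3.40 ± 0.53 in PDGFB tumors (edgeR adjusted p = 7.4e-05) and 2.53 ± 0.53 in RAS tumors (adjusted p = 0.000641) against normal brain. PDGFB against RAS tumors gave 0.87 (adjusted p = 0.0627), and passed without PDGFB tumor 3 (0.0494) or RAS tumor 1 (0.0126), with library totals or a looser filter (0.0405 each), with limma-voom (0.0198) and with no filter (0.0109). The stretch of Il1rap printed above is exon of Gm20319 as well, and Gm20319 had far more reads, 960 to 1246 in PDGFB tumors, 88 to 619 in RAS tumors and 30 to 58 in normal brain. It moved as Il1rap did, by 4.27 in PDGFB tumors and 2.88 in RAS tumors against normal brain and by 1.39 in PDGFB against RAS tumors (adjusted p = 2.84e-06, 2.87e-05 and 0.00305). RAS tumor 5 was the lowest tumor for both genes. Which of the genes the Il1rap reads belong to was not tested.

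Il12rb2, the chain that gives the interleukin 12 receptor its signal in T and NK cells, had 14, 12, 17, 30 and 18 reads in PDGFB tumors, 6, 11, 5, 7 and 7 in RAS tumors, and 78, 62 and 58 in normal brain. The groups did not overlap in any comparison. Its log2 fold change against normal brain was -2.19 ± 0.29 in PDGFB tumors (edgeR adjusted p = 1.91e-05) and -3.38 ± 0.32 in RAS tumors (adjusted p = 3.5e-07), and it was higher in PDGFB than in RAS tumors by 1.19 ± 0.32 (adjusted p = 0.00808). Serbp1, an RNA-binding protein gene, covers 1519 exon bases of Il12rb2 from the other strand, 631 of them coding in Il12rb2. Serbp1 did not follow it. Its log2 fold change was 0.47 in PDGFB tumors (adjusted p = 0.192) and 1.15 in RAS tumors (adjusted p = 0.00257) against normal brain.

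Il6st, the chain known as gp130 that the receptors for Il6, Il11 and Il27 share, had 7 to 14 reads in PDGFB tumors, 14 to 18 in RAS tumors and 8 to 12 in normal brain. No comparison passed (edgeR adjusted p = 0.703 in PDGFB tumors and 0.257 in RAS tumors against normal brain, and 0.0964 in PDGFB against RAS tumors).

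A secreted decoy and an enzyme complete the interleukin group. Il18bp binds and blocks Il18, and had 29, 26, 52, 32 and 31 reads in PDGFB tumors, 22, 41, 45, 26 and 104 in RAS tumors, and 7, 10 and 10 in normal brain. All tumors lay above normal brain. The rise was 1.57 ± 0.50 in PDGFB tumors (edgeR adjusted p = 0.0167, and 0.061 without normal sample 1) and 2.20 ± 0.50 in RAS tumors (adjusted p = 0.00124), and PDGFB against RAS tumors gave -0.62 (adjusted p = 0.203). Numa1, a gene of the mitotic spindle, lies across from 80 bases of Il18bp that code for neither protein, and gave 0.86 in PDGFB tumors (adjusted p = 0.0825) and 1.01 in RAS tumors (adjusted p = 0.0364) against normal brain. Its ligand Il18 had 12 reads in all. Il4i1, an amino acid oxidase of immune cells, averaged 25.4 ± 4.89 CPM in PDGFB tumors, 26.3 ± 10.9 CPM in RAS tumors and 27.2 ± 7.43 CPM in normal brain, with no comparison past the threshold (adjusted p = 0.48, 0.767 and 0.676). Exons of Tbc1d17 cover 3423 bases of Il4i1 from the other strand and those of Atf5 cover 82.

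Among the chemokines, Ccl6 was read in all RAS tumors and almost nowhere else. Ccl6 is a CC chemokine of rodents that myeloid cells secrete and that acts through Ccr1, as does its neighbor Ccl9. In RAS tumors Ccl6 (ENSMUSG00000018927, chr11:83587882-83593087, minus strand) had 13, 18, 8, 36 and 48 reads, while normal brain had none. PDGFB tumors had 0, 1, 0, 1 and 1. Ccl6 rose at least 22.9-fold in RAS tumors against normal brain (edgeR adjusted p = 9.08e-05). The ratio of counts in PDGFB tumors to RAS tumors was 0.0245, with a 95% counting interval of 0.00498 to 0.0732 (adjusted p = 6.41e-05). No exon lies across from it.

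Ccl9 stayed below the filter with 58 reads, 1, 1, 1, 1 and 2 in PDGFB tumors, 3, 9, 3, 11 and 24 in RAS tumors, and 2, 0 and 0 in normal brain. Every RAS tumor was above every other library. In a fit with no filter, added for the members with few reads, it was higher in RAS tumors than in normal brain (ratio of counts 14, interval 3.67 to 119, adjusted p = 0.000438), and lower in PDGFB than in RAS tumors (log2 -2.99, adjusted p = 9.43e-05). Without RAS tumor 5 these were 9.18 (adjusted p = 0.0132) and -2.41 (adjusted p = 0.0123). Without normal sample 3 the ratio was 9.06, and without normal sample 1, which held the normal reads, Ccl9 was at least 6.14-fold higher. Their receptor Ccr1 followed the same order, with 0, 2, 0, 0 and 1 reads in PDGFB tumors, 10, 6, 9, 9 and 3 in RAS tumors, and none in normal brain. Ccr1 was at least 6.89-fold higher in RAS tumors than in normal brain (adjusted p = 0.000149), and the ratio of counts in PDGFB to RAS tumors was 0.0814, interval 0.0161 to 0.257 (adjusted p = 0.000281). Without normal sample 1 or 3 the bound was 4.54-fold or 4.47-fold, and without PDGFB tumor 2 the ratio was 0.0338.

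Ccl6 and Ccl9 lie next to each other on the minus strand of chromosome 11, and their promoters are shown because both genes were high in the same tumors. RefSeq promoters (GRCm38.p6) were found for 103 of the 134 members. The stretches are 280 bases each, 250 before the start of the gene and 30 after it, at chr11:83593058-83593337 for Ccl6 and chr11:83578607-83578886 for Ccl9. Capitals mark runs of 10 or more bases that occur in both.
Ccl6 promoter: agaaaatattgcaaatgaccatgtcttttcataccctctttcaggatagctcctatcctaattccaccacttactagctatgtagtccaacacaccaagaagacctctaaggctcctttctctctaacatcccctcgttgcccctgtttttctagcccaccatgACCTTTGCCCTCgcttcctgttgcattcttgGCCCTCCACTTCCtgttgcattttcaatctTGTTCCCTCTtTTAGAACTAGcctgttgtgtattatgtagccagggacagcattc
Ccl9 promoter: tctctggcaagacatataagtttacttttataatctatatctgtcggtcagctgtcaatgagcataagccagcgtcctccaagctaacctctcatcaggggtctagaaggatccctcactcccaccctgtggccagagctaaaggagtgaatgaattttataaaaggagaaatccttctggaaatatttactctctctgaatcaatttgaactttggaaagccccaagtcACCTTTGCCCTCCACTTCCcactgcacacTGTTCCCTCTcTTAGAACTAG
The shared runs add up to 45 bases in Ccl6 and 39 in Ccl9. Those of Ccl6 lie before the start of the gene, and those of Ccl9 lie on both sides of it. The longest, GCCCTCCACTTCC, was found on either strand in 6 of 32851 promoters of this length (0.0183%). The 6 include those of Ccl6 and Ccl9, from which the run was taken, so the share is no test of it. A loose pattern for the AP-1 motif, TGANTCA with any base at N, was searched on both strands. It was present in 7.46% of these promoters, in that of Ccl9 and not in that of Ccl6. In Ccl9 it reads TGAATCA, so the match rests on N being open. A match is a description of letters and shows no binding.

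Cxcl14, a conserved chemokine of epithelia and brain, and Cxcr5, the receptor for Cxcl13 on B cells, passed the filter but no test. Cxcl14 had 6 to 18 reads in PDGFB tumors, 9 to 38 in RAS tumors and 7 to 17 in normal brain (edgeR adjusted p = 0.437 and 0.351 against normal brain). PDGFB against RAS tumors gave -1.02 for Cxcl14 (adjusted p = 0.0624), and passed without PDGFB tumor 5 (0.0394), RAS tumor 2 (0.0139) or RAS tumor 3 (0.0486). Cxcr5 had 5 to 12 reads in PDGFB tumors, 2 to 17 in RAS tumors and 5 to 12 in normal brain (adjusted p = 0.642 and 0.52 against normal brain). For Cxcr5, PDGFB against RAS tumors gave -0.75 (adjusted p = 0.212), and passed without RAS tumor 1 (0.0438). Bcl9l lies across from 110 bases of Cxcr5 and had 54 reads to the 119 of Cxcr5.

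The 77 members with a read below the filter had 321 reads in PDGFB tumors and 790 in RAS tumors, against 183 in normal brain. Their summed level was 84.8 to 125 CPM in PDGFB tumors, 194 to 406 CPM in RAS tumors and 93.7 to 117 CPM in normal brain. Every RAS tumor lay above every other library. In the fit with no filter, 23 of the 92 members with a read were higher and 5 lower in RAS tumors than in normal brain, where 11.6% of 23301 genes were higher and 12.9% lower. In PDGFB tumors 6 were higher and 4 lower than in normal brain, where 8.37% of genes were higher and 9.69% lower. PDGFB against RAS tumors gave 5 higher and 16 lower, where 6.74% of genes were higher and 6.69% lower.

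That fit added 17 higher and 2 lower members in RAS tumors against normal brain. The lower ones were Il17ra, whose values follow, and Il1rapl1, with no read in RAS tumors and 4, 1 and 0 in normal brain (edgeR with no filter, adjusted p = 0.0371). The ligands among the higher ones included Ccl2, Ccl3, Ccl7, Ccl9, Ccl12, Cxcl9, Cxcl10 and Il1b, and the receptors included Ccr1, Cxcr4, Il10rb, Il13ra1, Il3ra, Il4ra and Il6ra, with the receptor antagonist Il1rn. PDGFB tumors were lower than RAS tumors for 13 added members, Ccl2, Ccl9, Ccl24, Ccr1, Ccr2, Cxcl9, Cxcl10, Il11, Il13ra1, Il1b, Il1rn, Il4ra and Il6ra. Several rest on few reads in 1 tumor. Of the reads in RAS tumors, RAS tumor 5 held 11 of 14 for Il1rn and 9 of 10 for Ccl24.

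Ccl2, the main ligand of Ccr2 on inflammatory monocytes, had 2, 0, 2, 1 and 0 reads in PDGFB tumors, 4, 1, 4, 4 and 16 in RAS tumors, and none in normal brain. It was at least 5.4-fold higher in RAS tumors than in normal brain (edgeR with no filter, adjusted p = 0.000837), and lower in PDGFB than in RAS tumors (log2 -2.45, adjusted p = 0.0145). RAS tumor 5 held 16 of the 29 reads in RAS tumors. Without it the bound against normal brain was 3.06-fold (adjusted p = 0.0182), and PDGFB against RAS tumors no longer passed (log2 -1.68, adjusted p = 0.273). Without normal sample 1 or 3 the bound was 3.56-fold or 3.5-fold. Ccr2 itself had 9 reads, none in PDGFB tumors, 0, 2, 1, 2 and 3 in RAS tumors, and 1, 0 and 0 in normal brain.

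Il4ra and Il13ra1 together form the receptor by which cells outside the lymphocyte lineage answer Il4 and Il13. Il4ra had 5, 0, 3, 3 and 1 reads in PDGFB tumors, 8, 16, 8, 9 and 26 in RAS tumors, and 0, 0 and 1 in normal brain. Il13ra1 had 3, 2, 1, 2 and 1 reads in PDGFB tumors, 17, 2, 4, 18 and 6 in RAS tumors, and 1, 0 and 1 in normal brain. RAS tumors did not overlap normal brain for either chain, while for Il13ra1 RAS tumor 2 lay among the PDGFB tumors. Against normal brain the ratio of counts in RAS tumors was 37.4, interval 6.49 to 1500, for Il4ra (edgeR with no filter, adjusted p = 1.96e-06) and 13.1, interval 3.44 to 112, for Il13ra1 (adjusted p = 0.000763). Without normal sample 1 the ratio of Il4ra was 24.7, and without normal sample 3, which held its normal read, Il4ra was at least 8.09-fold higher. Both chains were lower in PDGFB than in RAS tumors, with a log2 fold change of -2.48 for Il4ra (adjusted p = 8.43e-05) and -2.35 for Il13ra1 (adjusted p = 0.00185). Gm44876 lies across from 571 bases of Il4ra, 61 of them coding. It had 18 to 26 reads in PDGFB tumors, 51 to 114 in RAS tumors and 4 to 10 in normal brain, and moved the same way (log2 3.49 in RAS tumors against normal brain, adjusted p = 7.28e-07, and -2.16 in PDGFB against RAS tumors, adjusted p = 8.32e-06). Nothing lies across from Il13ra1.

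Il17ra, the chain common to the receptors of the Il17 family, was the member below the filter that fell in both tumor groups. It had 1, 0, 0, 1 and 4 reads in PDGFB tumors, 5, 2, 2, 5 and 2 in RAS tumors, and 8, 11 and 12 in normal brain. All tumors lay below normal brain. The log2 fold change was -3.18 in PDGFB tumors (edgeR with no filter, adjusted p = 0.000113) and -1.80 in RAS tumors (adjusted p = 0.0194). The call in RAS tumors was lost without normal sample 2 (0.0885) or normal sample 3 (0.0894), and the value in PDGFB tumors was -4.28 without PDGFB tumor 5. The 3′ end of Tmem121b lies 1380 bases from that of Il17ra, on the other strand, and had 1 to 4 reads in PDGFB tumors, 0 to 3 in RAS tumors and 5 to 18 in normal brain.

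Il10rb, a chain of the Il10 receptor, had 0 to 9 reads in PDGFB tumors, 2 to 6 in RAS tumors and 0 to 1 in normal brain (ratio of counts in RAS tumors to normal brain 13.4, interval 2.19 to 551, edgeR with no filter, adjusted p = 0.0141). That call was lost without normal sample 1 (0.0833) or normal sample 2 (0.0734), and PDGFB tumors against normal brain passed without PDGFB tumor 3 (adjusted p = 0.0379, and 0.0682 with it). The other 4 members with 30 or more reads passed in no comparison (lowest adjusted p = 0.116). Cxcl16, a membrane-bound ligand of Cxcr6, had 82 reads, and Zmynd15, over 552 of its bases on the other strand, had 1497. Il17rc, a partner chain of Il17ra, had 67 reads. Ccr10, a receptor of skin-homing T cells, had 52. Il16, a ligand of Cd4, had 34, with Stard5 over 1202 of its bases and 419 reads.

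**Figure D3:**
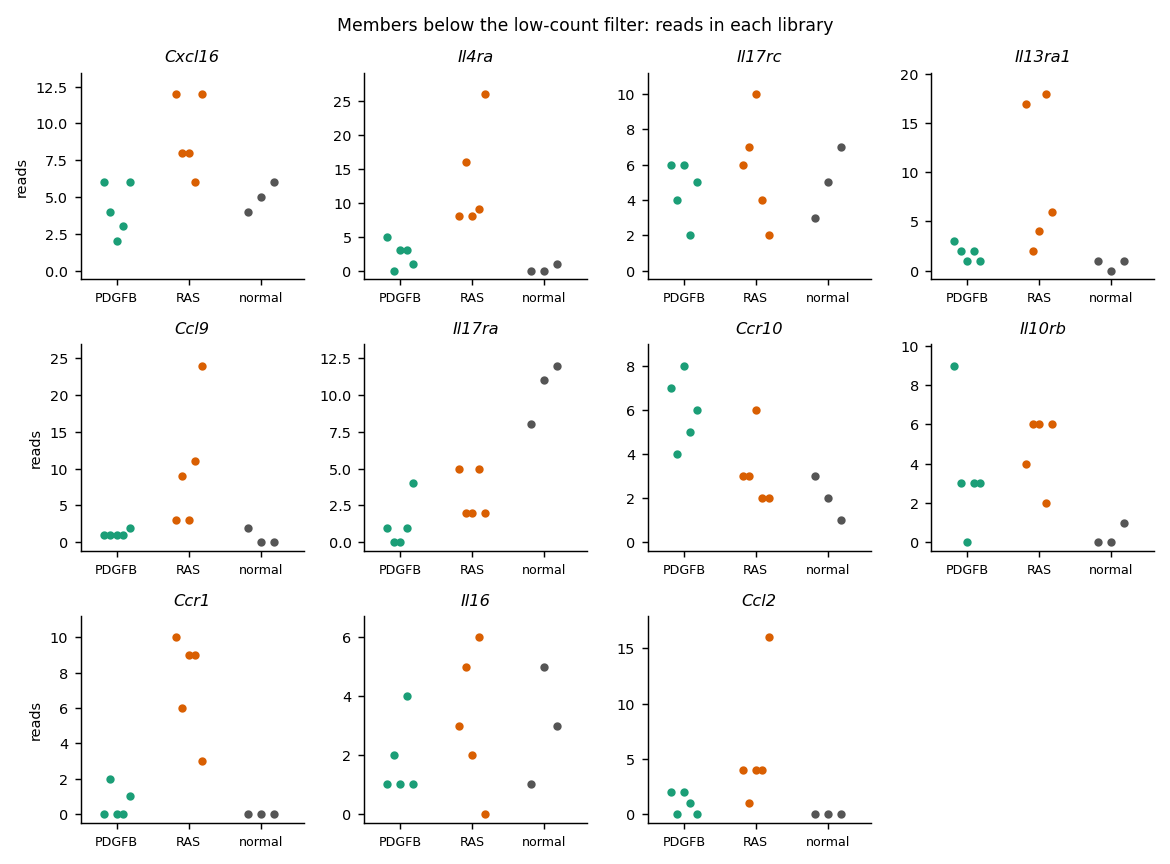
Reads in each library for 11 of the 12 members with 30 or more reads that did not pass the low-count filter, PDGFB tumors (n = 5) left of RAS tumors (n = 5) and normal brain (n = 3). Il4ra, Ccl9 and Ccr1 are higher in every RAS tumor than in any other library, and Il17ra is highest in the 3 normal samples.

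**Figure D4:**
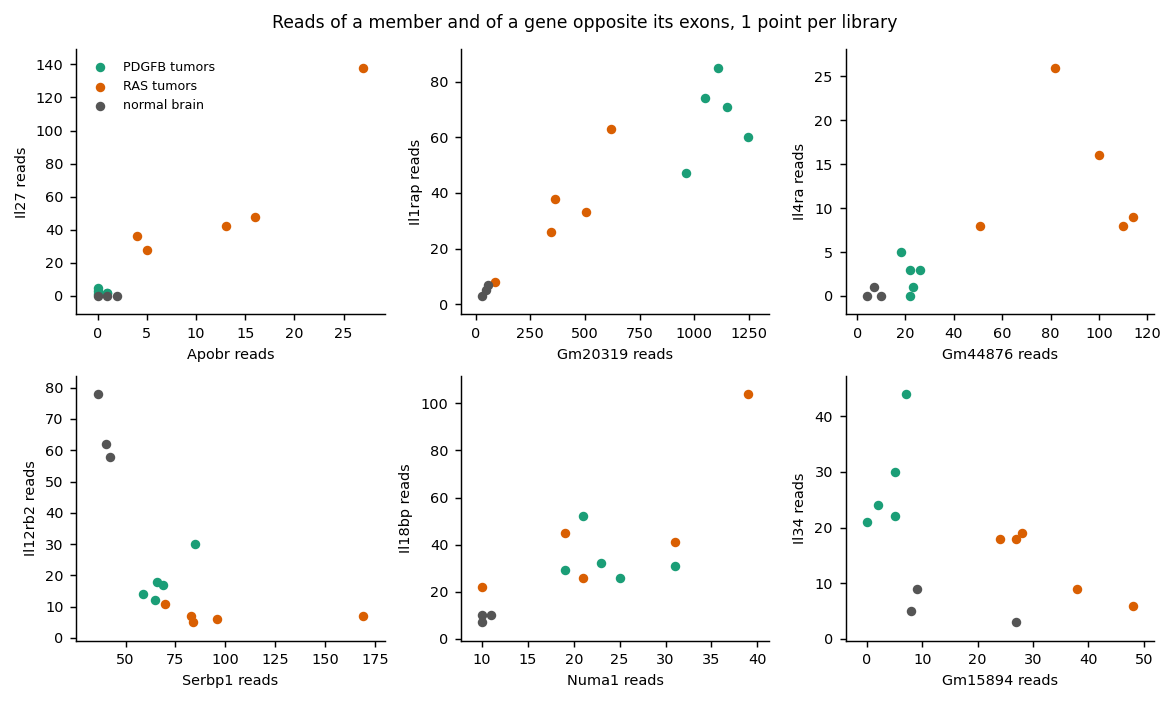
Reads of 6 members (vertical axes) against reads of a gene whose exons overlap theirs on the other strand (horizontal axes), 1 point per library. Il27 and Apobr, Il1rap and Gm20319, and Il4ra and Gm44876 are high in the same libraries, while Il12rb2 is high where Serbp1 is low. Il34 is higher and Gm15894 lower in PDGFB tumors than in RAS tumors, while in normal brain Il34 is low and Gm15894 varies.

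Markers of macrophages and microglia moved with Il27, Ccl6, Ccl9, Ccr1 and Il4ra. Of 20 markers, 11 were tested. In RAS tumors 8 rose and none fell against normal brain, in PDGFB tumors 3 rose and 1 fell, and in PDGFB against RAS tumors none rose and 9 fell. The summed level of the 20 was 434 to 566 CPM in PDGFB tumors, 828 to 1250 CPM in RAS tumors and 421 to 479 CPM in normal brain, and no marker was at 0. Lyz2, the lysozyme of macrophages, averaged 20.8 ± 8.84 CPM in PDGFB tumors, 176 ± 22.1 CPM in RAS tumors and 3.38 ± 4.33 CPM in normal brain. Neutrophil markers summed to 0 to 4.96 CPM in PDGFB tumors, 1.64 to 11.5 CPM in RAS tumors and 0 to 3.41 CPM in normal brain, and Ly6g, Cxcr2, Elane, Ngp and Retnlg had no read. The T and NK cell markers stand beside Il4. Fibroblast markers summed to 186 to 301 CPM in PDGFB tumors, 153 to 432 CPM in RAS tumors and 22.7 to 27.2 CPM in normal brain. Pdgfra is both in this list and among the markers of oligodendrocyte precursors, so the sum need not be of fibroblasts alone. The precursor markers summed to 617 to 871 CPM in PDGFB tumors, 178 to 333 CPM in RAS tumors and 95.4 to 106 CPM in normal brain. Of 8 fibroblast markers 4 were tested, and these moved with Il27 and Ccl6 too. All 4 rose in RAS tumors and 1 rose in PDGFB tumors against normal brain, and in PDGFB against RAS tumors 1 was higher and 3 were lower (median log2 fold change of the 4 -3.10). The part of these cells in the members' results was not tested.

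The genes around the members in their pathways were given by 5 lists. Of all tested genes, 45.3% were called in PDGFB tumors and 56.2% in RAS tumors against normal brain, and 32.1% in PDGFB against RAS tumors. Few genes of each list were tested, so the counts below do not set a list apart from other genes. In chemokine receptor signaling 9 of 16 genes were tested. Against normal brain 2 rose and 3 fell in PDGFB tumors, 3 rose and 3 fell in RAS tumors, and in PDGFB against RAS tumors 1 rose and 2 fell. The inhibitory G protein subunits, which pass on the chemokine signal, split. Gnai2 averaged 75.3 ± 8.47 CPM in PDGFB tumors, 140 ± 25.4 CPM in RAS tumors and 35.5 ± 5.57 CPM in normal brain, and rose in both tumor groups (log2 0.85, edgeR adjusted p = 0.0144, and 1.89, adjusted p = 1.69e-05). Gnai1 fell to 17.2 ± 5.42 CPM in PDGFB tumors and 2.63 ± 3.2 CPM in RAS tumors, against 38.1 ± 8.43 CPM in normal brain (adjusted p = 0.0129 and 1.35e-05). Ptk2b, a kinase downstream of chemokine receptors, fell by 3.33 on the log2 scale in PDGFB tumors (adjusted p = 1.8e-05) and by 2.21 in RAS tumors (adjusted p = 0.000196).

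Of 21 JAK and STAT genes 5 were tested, with 1 higher and 2 lower in PDGFB tumors and 2 higher and 2 lower in RAS tumors against normal brain, and 2 lower in PDGFB against RAS tumors. Stat3, which Il6st activates, averaged 37.4 ± 13.1 CPM in PDGFB tumors, 48 ± 14.6 CPM in RAS tumors and 9.88 ± 1.87 CPM in normal brain, and rose in both tumor groups (edgeR adjusted p = 0.00229 and 0.000157). Stat6, which Il4ra activates, rose in RAS tumors by 1.70 (adjusted p = 0.000845) and gave 0.85 in PDGFB tumors (adjusted p = 0.0727). Of 25 NF-kB and interleukin 1 receptor genes 7 were tested, with 2 higher and 1 lower in PDGFB tumors and 3 higher and 2 lower in RAS tumors against normal brain, and 1 lower in PDGFB against RAS tumors. Myd88, the adaptor below Il1rap, rose by 1.69 in PDGFB tumors and 1.98 in RAS tumors (adjusted p = 0.00787 and 0.00167). Nfkb2 fell to 291 ± 126 CPM in PDGFB tumors and 146 ± 114 CPM in RAS tumors, against 1260 ± 44.7 CPM in normal brain (adjusted p = 0.000119 and 4.96e-06). Stat3, Stat6, Myd88 and Nfkb2 all lie across from exons of other genes.

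Of 13 chemokine family genes outside the symbols used here 3 were tested, with none higher and 2 lower in each tumor group against normal brain, and 1 lower in PDGFB against RAS tumors. Cx3cl1, the membrane-bound chemokine of neurons, had 11.5 ± 8.71 CPM in PDGFB tumors, 11.3 ± 8.04 CPM in RAS tumors and 81.9 ± 3.16 CPM in normal brain (edgeR adjusted p = 7.91e-05 and 6.75e-05). Its receptor on microglia, Cx3cr1, was lower in PDGFB than in RAS tumors (log2 -1.05, adjusted p = 0.00656). Of 17 receptor chains and related cytokines outside those symbols, 1 was tested, Csf1r, with the values given beside Il34.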

How the data were processed

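The values were raw read counts per gene, deposited with no normalization by the authors. STAR 2.7.9a, fastp 0.22.0 and the build GRCm38 are named in the submitters' processing notes; the annotation and strand setting are not given in the sources used here. Trizol RNA went into TruSeq RNA libraries, per the labels. Groups came from the tumor titles and the tissue label of the normal samples, which are numbered in the order listed; the titles of normal samples 1 and 2 start with NBT and that of normal sample 3 with MBT. Of the gene identifiers, 52135 matched GENCODE M21 and 3281 did not. Genes with few reads were removed by filterByExpr at a minimum count of 10 and a minimum total of 15, leaving 7722, and edgeR 4.0.16 in R 4.3.3 fitted a quasi-likelihood model with TMM factors and 1 coefficient per group over all 13 libraries. Tests were two-sided, with Benjamini-Hochberg adjustment over all genes of the fit and a threshold of 0.05.

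CPM were computed from the counts and the total counted for genes. Where a group had no read, 3 reads summed over its libraries stand in for it and the fold is a bound; with 1 to 3 reads the ratio of counts has an exact 95% interval. Only counting error enters these intervals and bounds, and PCR copies, which no molecular identifier marks here, would widen them. P-values measure the spread between these libraries; tumors came from separate mice, normal samples may not. No 2 libraries of a group agreed within sampling noise (lowest chi-square per degree of freedom 1.69). Counts of 7722 genes were simulated with 4-fold changes for PDGFB tumors against normal brain, and filtered again before the test. Of the 185 changed genes still tested, 177 were recovered, with 13 false calls. The simulation gave every gene the same spread between libraries, which the real genes do not have. It checks that the fit runs as meant and gives no recovery rate for the members.

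The members and lists were chosen with earlier results of these data known. Named were all tested members, untested ones with 30 or more reads (1 of which is not reported here, though counts include it), genes overlapping either, and for each pathway list the called genes with the largest changes; other members appear by count, and Ccr2, Ebi3, Il1rl1, Il27ra, Il18, Il1rn, Ccl24, Kif3a, Tmem121b, Lyz2 and the names of added calls were chosen after their values were seen. Alternatives were DESeq2 1.42.0, limma-voom 3.58.1, other scalings, filters and thresholds, fits of the 2 compared groups, genes with no exon across from them, a replicate block, and leaving out each library.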

Additional observations from a re-analysis of the deposited data

Results flagged for a closer look

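Of 54 groups of 5 tumors checked, 7 held a highest library that stood apart from the other 4. Chance flags about 1 in 20 groups where values are normally distributed. That rate need not hold for groups with few reads, so the 7 were not set against it. Il27 reached 215 CPM in RAS tumor 5, where the other RAS tumors had 47.6 to 78.6 CPM. Ccl2 reached 24.9 CPM (16 reads) in the same tumor, where the others had 1.64 to 6.79 CPM. Il12rb2 had 18.1 CPM in RAS tumor 2, where the others had 8.49 to 11.1 CPM. Ccr10 had 10.2 CPM (6 reads) in RAS tumor 3, where the others had 3.11 to 4.92 CPM. Il18bp had 84.8 CPM in PDGFB tumor 3, where the others had 42.7 to 52.9 CPM. In PDGFB tumor 5, Il17ra had 6.61 CPM (4 reads), where the others had 0 to 1.65 CPM, and Ccl9 had 3.31 CPM (2 reads), where the others had 1.57 to 1.65 CPM.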

How the results depend on the processing

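Of the 45 fold changes of tested members, 23 were called. At the threshold of 0.05, 20 of these kept their call in every alternative that gave them a value (12 alternatives for Il21). Another 3 lost it in some (Il18bp and Il1a in PDGFB tumors against normal brain, Il4 in PDGFB against RAS tumors). Of the uncalled ones 7 gained a call in some, and none of the 45 reversed. The threshold of 0.01 is not in these counts. Under it Il21 in PDGFB tumors against normal brain also lost its call (edgeR adjusted p = 0.0124). The count of called members was 8 in PDGFB tumors against normal brain, 9 in RAS tumors against normal brain and 6 in PDGFB against RAS tumors. Among genes with no exon across from them, 6 members were tested, with 2, 4 and 4 called in the same order of comparisons. An adjusted p under 0.01 left 5 in PDGFB tumors against normal brain. With no low-count filter, 28 were called in RAS tumors against normal brain and 21 in PDGFB against RAS tumors, of 92 members fitted. A looser filter (1 CPM in 5 libraries) gave 25 and 16 of 58, since more members entered. The share of all genes called is given here only for the main fit and the fit with no filter. The counts of members under other settings have no such share beside them. Leaving out 1 library at a time gave 6 to 8, 8 to 14 and 6 to 11; the highest 2 counts came without normal sample 3 and normal sample 1, when the filter kept 19 and 20 members. Without RAS tumor 2 and RAS tumor 5, chosen after seeing the data, 8, 8 and 5 were called. Il27 in PDGFB tumors against normal brain was called under 6 alternatives, with adjusted p from 0.00725 to 0.048. Library totals in place of TMM moved the median of all genes by 0.23 in PDGFB tumors against normal brain and by 0.14 in PDGFB against RAS tumors, and the share of calls that were higher to 56.9% (44.5% with TMM) and 57.4% (45.6%); 9, 10 and 8 members were then called. The tumor groups share replicate numbers, but same-numbered tumors correlated at only -0.13 to 0.14, so the numbers pair nothing; with the replicate number as a block, 5 of 11 tested members were called in PDGFB against RAS tumors. The fit with no filter, repeated without each library in turn after seeing the data, lost calls of Ccl2, Il17ra and Il10rb, given beside their values. At this depth most members could not be tested.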
